A study of Homo sapiens with 18 samples.

Results

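Serine 5-phosphorylated RNA polymerase II (Ser5 Pol II) was examined at 7 metabolic and signalling genes that have been linked to the fusion transcription factor PAX3-FOXO1, namely PIPOX, ABAT, RASSF4, SKP2, GREM1, CDH3 and FGF8. Each gene was given a window on the hg19 genome, and every counted region that shared at least 1 base with a window was taken as belonging to it. Only 2 of the 12123 regions of the table met this rule, 1 at PIPOX and 1 at GREM1. ABAT, RASSF4, SKP2, CDH3 and FGF8 have no row inside their windows, so for these 5 genes the nearest rows outside are given instead. A missing row gives no level for a gene, and it says nothing about whether the gene is transcribed.

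The cells were Rh30, an established alveolar rhabdomyosarcoma line, in which PAX3-FOXO1 carries an FKBP tag. The control group was given only the solvent DMSO. Of the treated groups, 1 was kept in dTAG47 at 500 nM for 2 h and the other for 4 h. The compound dTAG47 binds the FKBP tag and brings the fusion protein to a ubiquitin ligase, so that it is degraded. There were 2 ChIP-seq libraries per group, called A and B, and 6 in all, with 962251 to 1792013 counts per library over the table. All groups carry the tagged fusion, DMSO included, and untagged cells given dTAG47 were not analysed here. The labels do not say whether the cells are 1 clone or whether libraries A and B come from separate cultures. The p-values thus measure the spread between these libraries only, with the spread of each region drawn towards that of the whole table.

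Pol II is phosphorylated on serine 5 of its C-terminal repeats as it starts transcription, so this form is found mostly near start sites and where the enzyme pauses downstream of them. PAX3-FOXO1 joins the DNA-binding domains of PAX3 to the activation domain of FOXO1. It binds largely at enhancers in rhabdomyosarcoma cells and keeps genes of the myogenic and developmental programme active. The metabolic genes here are PIPOX, which encodes a peroxisomal oxidase of pipecolate and sarcosine, and ABAT, which encodes the mitochondrial transaminase that breaks down the transmitter GABA. GREM1 and FGF8 encode secreted signals. GREM1 protein binds and blocks bone morphogenetic proteins, and FGF8 protein is a ligand of fibroblast growth factor receptors. CDH3 encodes P-cadherin, a calcium-dependent adhesion molecule. RASSF4 encodes a Ras-association domain protein linked to Hippo signalling, and SKP2 encodes the substrate-binding subunit of an SCF ubiquitin ligase that marks the cell cycle inhibitor p27 for destruction.

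The PIPOX region lay at chr17:27368605-27369005 (hg19). It crossed the lower edge of the PIPOX window, chr17:27368900-27385300, and shared 105 bases with it. The GREM1 region lay at chr15:33010070-33010470, wholly inside the window chr15:33009200-33027900 and 870 bases from its lower edge. RefSeq places both genes on the plus strand, so both regions are at the side of the window where transcription starts. An hg19 annotation was not used here, so neither region was assigned to an exon, intron or promoter. The promoter sequences of these genes in RefSeq, on build GRCh38.p14, are shown because the regions lie at that side. Positions on that build do not match the hg19 positions above, so the counted regions may not hold the printed bases or their matches. Each sequence runs 5′ to 3′ from 250 bases before the start site. Capitals mark matches on either strand to ATTA, the core of homeodomain sites, to GTCAC, a core of paired-domain sites, or to CANNTG, the E-box bound by myogenic bHLH factors.

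PIPOX, GRCh38.p14 chr17:29042891-29043190, plus strand: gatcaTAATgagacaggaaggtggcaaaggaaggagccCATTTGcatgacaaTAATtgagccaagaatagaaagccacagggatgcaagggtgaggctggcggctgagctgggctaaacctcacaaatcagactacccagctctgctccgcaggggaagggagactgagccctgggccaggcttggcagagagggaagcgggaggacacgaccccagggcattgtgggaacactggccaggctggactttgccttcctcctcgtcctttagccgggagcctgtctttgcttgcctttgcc

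GREM1, GRCh38.p14 chr15:32717754-32718053, plus strand: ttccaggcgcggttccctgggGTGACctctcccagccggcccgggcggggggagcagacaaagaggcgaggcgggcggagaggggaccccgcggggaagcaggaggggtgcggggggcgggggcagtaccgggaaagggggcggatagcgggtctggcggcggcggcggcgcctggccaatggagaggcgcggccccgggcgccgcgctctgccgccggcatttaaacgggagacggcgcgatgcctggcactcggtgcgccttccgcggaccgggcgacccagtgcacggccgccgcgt

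GREM1 alternative start, GRCh38.p14 chr15:32718234-32718533, plus strand: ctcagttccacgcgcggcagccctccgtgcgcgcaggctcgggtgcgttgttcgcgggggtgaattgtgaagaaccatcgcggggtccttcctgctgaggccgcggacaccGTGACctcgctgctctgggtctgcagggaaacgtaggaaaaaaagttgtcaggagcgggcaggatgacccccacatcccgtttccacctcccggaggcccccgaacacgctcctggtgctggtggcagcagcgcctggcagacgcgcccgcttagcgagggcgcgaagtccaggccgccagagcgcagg

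The PIPOX promoter held 2 matches to ATTA and 1 to CANNTG, none of which overlapped another. The homeodomain cores began 245 and 198 bases before the start site, and the E-box letters, CATTTG, began 212 bases before it. Each GREM1 promoter held 1 match to GTCAC, read as GTGAC on the printed strand, and no match to ATTA or CANNTG. The letters TATAAA were searched as well, on both strands, and were absent from all 3. Over the 35116 promoters of this length in the RefSeq table, the homeodomain core was held by 50.2%, the paired-domain core by 42.5%, the E-box by 68.7% and the TATA letters by 11.5%, so each match found is of a common kind. The sequences differed more in composition. PIPOX had 57.3% G and C with 6 CpG dinucleotides, against 77.0% with 42 and 67.3% with 31 for the GREM1 promoters and medians of 58.7% and 14 over all promoters.

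**Figure D1:**
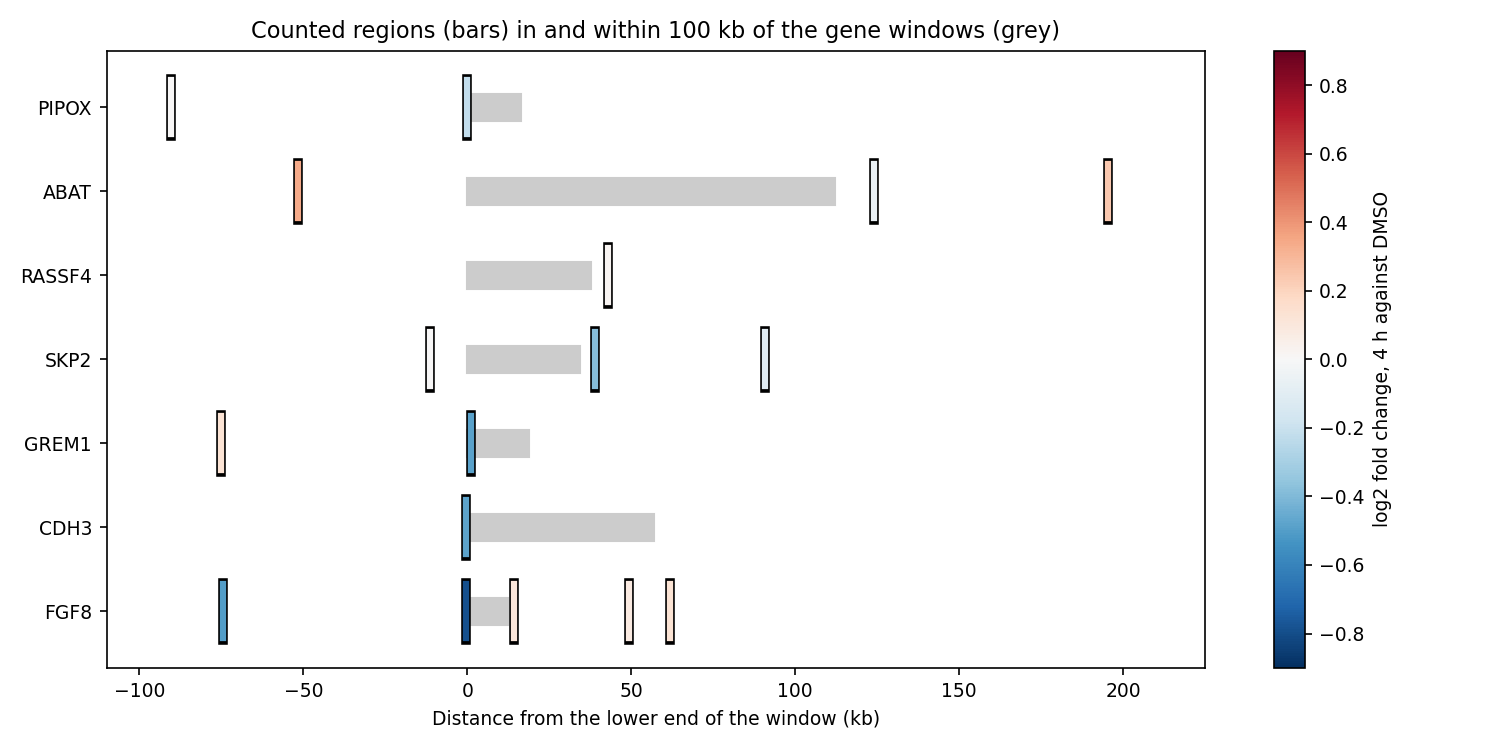
Each row is 1 gene. The grey box is its window, the horizontal axis is the distance from the lower end of the window in kb, and each bar is a counted region within 100 kb, drawn wider than its true size and coloured by its log2 fold change at 4 h against DMSO. The 2 regions in windows, at PIPOX and GREM1, sit at the lower edge, and the bluest bar is the region 116 bases below the FGF8 window.

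The windows without a row differed in how close the nearest counted region was, as the map of regions shows. For CDH3, whose window is chr16:68677100-68734000, a region ended 205 bases below the lower edge. For FGF8, at chr10:103528800-103541100, 1 region ended 116 bases below the lower edge and another began 1.8 kb above the upper edge. For SKP2, at chr5:36151100-36185500, the nearest began 4.4 kb above the window, and for RASSF4, at chr10:45453500-45491200, 5.1 kb above it. ABAT, at chr16:8767400-8879500, had the widest window and no region within 10 kb, the nearest being 11.9 kb above it. Regions of the table stood a median of 73.9 kb apart on a chromosome. The current RefSeq gene span is longer than the window for SKP2 (41.4 kb against 34.4 kb), GREM1 (27.1 against 18.7 kb) and CDH3 (88.5 against 56.9 kb). A region just outside these windows may therefore lie inside a longer gene model. The span is shorter than the window for PIPOX (14.1 against 16.4 kb), ABAT (110.0 against 112.1 kb), RASSF4 (36.1 against 37.7 kb) and FGF8 (10.3 against 12.3 kb). The PIPOX region, at the window edge, may thus lie outside the gene, and the region below FGF8 may lie more than 116 bases from it. Coding genes next to these in RefSeq are FBXW4 and NPM3 on the lower and upper sides of FGF8, ZFP90 and CDH1 around CDH3, and NADK2, which overlaps SKP2. ZNF22 is on the upper side of RASSF4, which DEPP1 overlaps, and METTL22 and TMEM186 are around ABAT. The distances do not say to which gene a nearby region belongs.

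Both regions in windows had middling signal. Levels are given as CPM, the counts scaled to library size (counts per 1e6) after normalisation by trimmed mean of M-values (TMM). The mean over the 6 libraries was 73.5 CPM at PIPOX and 73.5 CPM at GREM1, and both stood at the 59.5th percentile of all regions. The counts behind them ran from 65 to 144 at PIPOX and from 52 to 164 at GREM1, so that counting alone gives an error of 12.4% on the lowest count at PIPOX and 13.9% on the lowest at GREM1.

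Ser5 Pol II at PIPOX showed no change past the threshold. The 2 DMSO libraries had 77.8 and 80.1 CPM, the 2 h libraries 57.3 and 89.7 CPM, and the 4 h libraries 66.8 and 69.2 CPM. At 2 h, library A lay below both DMSO libraries and library B above both, while at 4 h both libraries lay below both DMSO libraries. The means were 78.9 ± 1.64, 73.5 ± 22.9 and 68.0 ± 1.74 CPM (SD, n = 2 each). The log2 fold change was -0.11 at 2 h (SE 0.17, 95% interval -0.44 to 0.22, edgeR adjusted p = 0.834) and -0.22 at 4 h (SE 0.17, interval -0.56 to 0.13, adjusted p = 0.652). The 4 h interval reaches from 0.678 to 1.09 of the DMSO level. The test therefore left room both for a fall to 0.678 of the DMSO signal and for a small rise. The sign at 2 h rested on library A, and without it the log2 fold change was 0.19.

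GREM1 had lower signal at 4 h, which missed the threshold in the fit without a replicate block and passed it with one. Its DMSO libraries had 88.6 and 75.3 CPM, its 2 h libraries 75.4 and 85.1 CPM, and its 4 h libraries 61.1 and 55.4 CPM. The 2 h values lay within the range of the DMSO values, and both 4 h values lay below every DMSO and 2 h value. Both 4 h libraries lay below both DMSO libraries in 20.6% of all regions. The share that lay below the 2 h libraries too was not counted. The means were 81.9 ± 9.39, 80.3 ± 6.88 and 58.3 ± 4.05 CPM (SD, n = 2 each). At 2 h the log2 fold change was -0.04 (SE 0.15, 95% interval -0.35 to 0.27, edgeR adjusted p = 0.944). At 4 h it was -0.49 (SE 0.16, interval -0.82 to -0.15), which is 0.714 of the DMSO level, with an unadjusted p of 0.00491 and an edgeR adjusted p of 0.130. Over the alternatives run, the 4 h value ranged from -0.58 to -0.35 and its adjusted p from 0.0341 to 0.842. The lowest p came from the fit with the column letter as a replicate block (-0.49, edgeR adjusted p = 0.0341). That fit called 1.67% of all regions lower and 4.45% higher at 4 h, and the labels do not say that a letter marks a shared culture or day. The 3 highest regions of the table took 1.77% and 2.61% of the counts in the DMSO libraries and 2.61% and 4.17% in the 4 h libraries. With that share as a covariate the GREM1 value was -0.38 (adjusted p = 0.414), and its part in the difference was not tested otherwise.

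**Figure D2:**
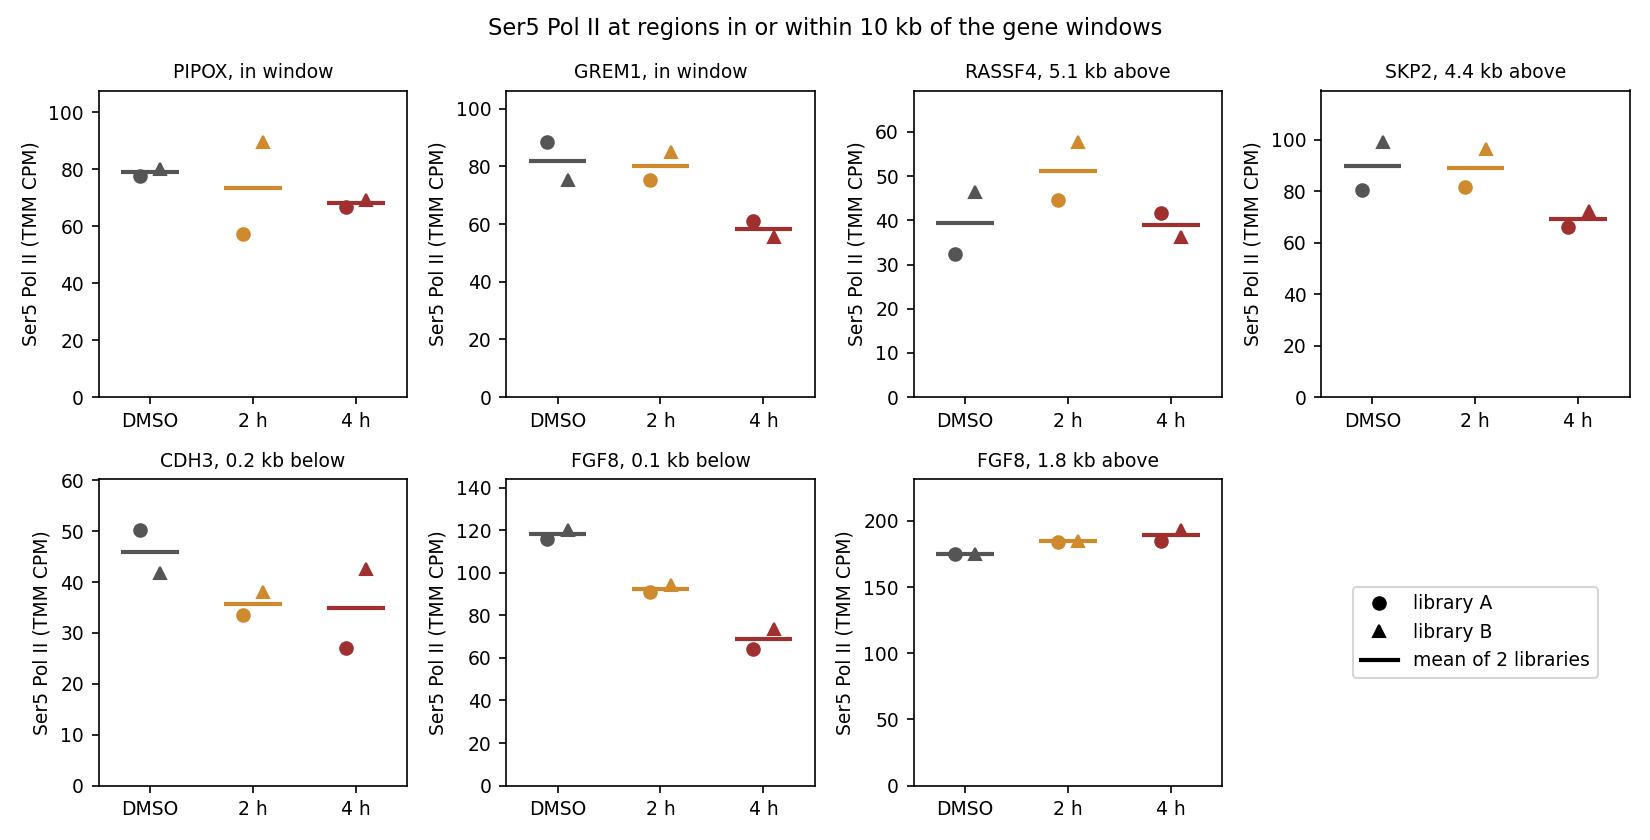
Ser5 Pol II in each library, as TMM-scaled CPM from 0 upwards, for the 2 regions in windows and the 5 regions within 10 kb of a window. Circles are library A, triangles library B and lines the mean of 2 libraries. GREM1 drops from 81.9 to 58.3 CPM at 4 h, and the region below FGF8 steps down from 118 to 92.5 and 68.9 CPM.

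Neither region in a window was called at either time without the block. In the 2 h comparison 0 of 2 were called lower and 0 of 2 higher, beside 0.396% and 2.22% of all 12123 regions (adjusted p under 0.05 in edgeR). At 4 h it was again 0 of 2 in each direction, beside 0.487% lower and 1.52% higher. With background shares this small, 0 calls among 2 regions is no result about these genes. Without adjustment, 0 of the 2 regions at 2 h and 1 of the 2 at 4 h, GREM1, had p under 0.05, against 659 lower and 1076 higher regions in the whole table at 2 h and 617 and 994 at 4 h. DESeq2 gave no adjusted p for either region at 2 h, so it could not call them there, and it called neither at 4 h. Limma-voom called neither at either time, and the fit with the replicate block called GREM1 at 4 h. The median log2 fold change of the pair was -0.07 at 2 h and -0.36 at 4 h, against -0.01 and -0.01 over all regions. By rank, the GREM1 value at 4 h stood at percentile 2.8 of all regions from the lowest, and the PIPOX value at percentile 18.1. Having both treated libraries below both DMSO libraries was common in the table. It held for 21.8% of all regions at 2 h, where it held for neither member, and for 20.6% at 4 h, where it held for both.

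**Figure D3:**
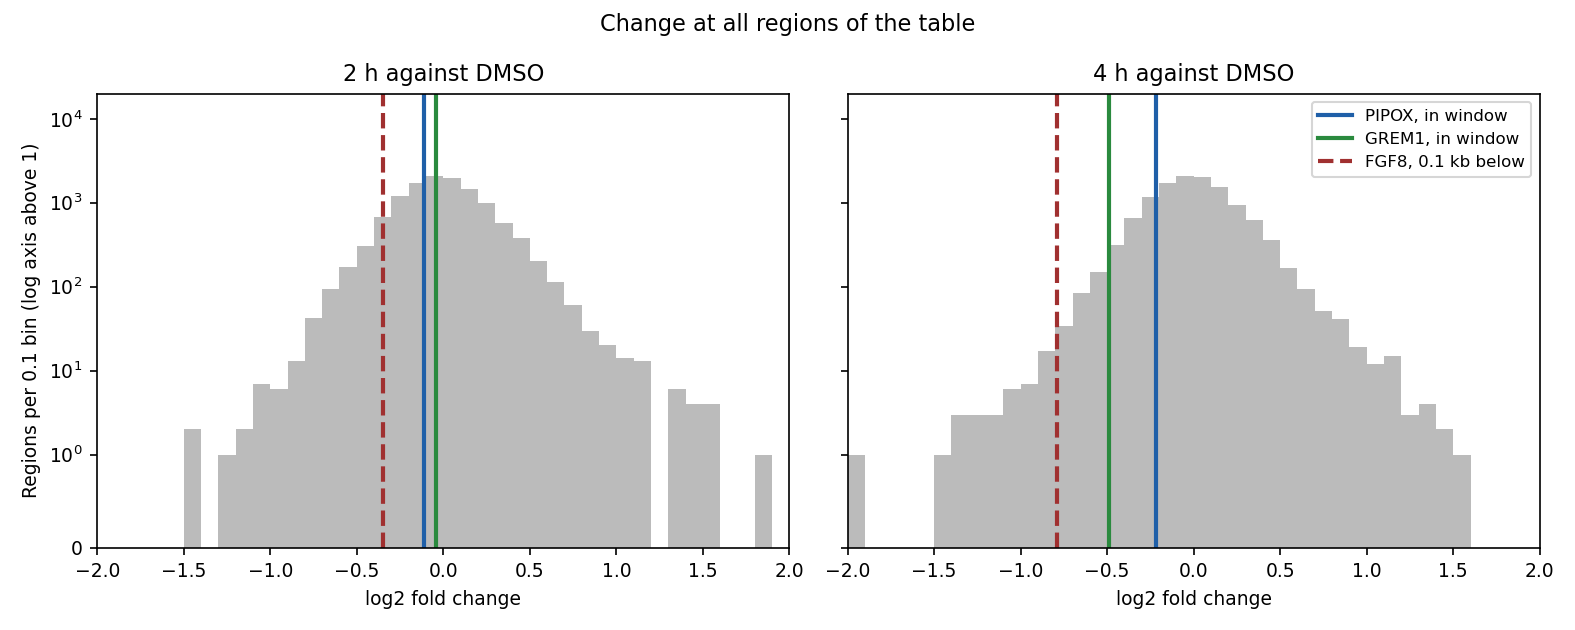
Histograms of the log2 fold change against DMSO at 2 h (left) and 4 h (right) for all 12123 regions, in bins of 0.1, with a vertical axis that is logarithmic above 1. Lines mark PIPOX (blue), GREM1 (green) and the region 0.1 kb below FGF8 (dashed red), which lie at -0.11, -0.04 and -0.35 at 2 h and at -0.22, -0.49 and -0.79 at 4 h.

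From 2 h to 4 h no region of the table passed the threshold (0% lower and 0% higher in edgeR, with 251 and 145 at an unadjusted p under 0.05, and 0 in DESeq2 and in limma-voom). The PIPOX difference was -0.11 (SE 0.18). The GREM1 difference was -0.45 (SE 0.17, 95% interval -0.79 to -0.10, unadjusted p = 0.0118, edgeR adjusted p = 0.998). GREM1 is thus lower at 4 h than at 2 h in these libraries, without passing the adjustment over the table.

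Around FGF8, the region 116 bases below the window, chr10:103528284-103528684, fell after 4 h. FGF8 is known to be transcribed towards lower coordinates, so this region is on the side of the 3′ end of the gene, towards FBXW4. It had 116 and 120 CPM in the DMSO libraries, 90.8 and 94.3 CPM at 2 h, and 64.3 and 73.5 CPM at 4 h. All treated values lay below both DMSO values, and both 4 h values lay below both 2 h values. Both treated libraries lay below both DMSO libraries in 21.8% of all regions at 2 h and 20.6% at 4 h. The share with the full order of 3 groups was not counted. Against a DMSO mean of 118 ± 2.97 CPM, the means were 92.5 ± 2.46 CPM at 2 h and 68.9 ± 6.53 CPM at 4 h (SD, n = 2 each). The log2 fold change was -0.35 at 2 h (SE 0.14, 95% interval -0.63 to -0.06, edgeR adjusted p = 0.224) and -0.79 at 4 h (SE 0.15, interval -1.10 to -0.48, adjusted p = 0.00127). The 4 h signal was 0.579 of the DMSO level, and its log2 fold change was the 43rd lowest of 12123. The call ended in DESeq2 (-0.78, adjusted p = 0.0794) and without 4 h library A (-0.68, edgeR adjusted p = 0.0636), with the sign kept.

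The region on the other side of FGF8, chr10:103542929-103543329, on the side of NPM3 and 1.8 kb above the window, had the highest signal of those within 10 kb. Its libraries had 175 and 175 CPM in DMSO, 184 and 185 CPM at 2 h, and 185 and 193 CPM at 4 h. The log2 fold changes were 0.07 (95% interval -0.21 to 0.36, edgeR adjusted p = 0.886) and 0.11 (interval -0.18 to 0.39, adjusted p = 0.828). Since the regions stand 14.6 kb apart in the same libraries, their count ratio needs no scaling. The lower region had 0.660 and 0.684 of the counts of the upper one in DMSO, 0.494 and 0.510 at 2 h, and 0.347 and 0.381 at 4 h. Its 3 groups did not overlap, and this ratio was chosen after the values had been seen. How often such ratios separate by group over the table was not counted. With 2 libraries against 2 an exact permutation test cannot go below p = 0.333. The ratio restates the values above without scaling and is no separate test of them.

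For comparison, the same ratio was taken at PIPOX and GREM1 against the nearest other region, 90.2 and 76.3 kb away. At GREM1 it was 1.66 and 1.51 in DMSO, 1.61 and 1.53 at 2 h, and 1.15 and 0.881 at 4 h, so the 4 h libraries lay apart from the rest. The region it was divided by had a log2 fold change of 0.13 at 4 h (SE 0.18), so part of the lower ratio came from that region. The nearest region above the GREM1 window, 283.9 kb from it, had -0.47 at 4 h (SE 0.29, edgeR adjusted p = 0.526), close to GREM1 at -0.49. It rested on 26 to 58 counts per library. At PIPOX it was 0.787 and 0.801 in DMSO, 0.562 and 1.03 at 2 h, and 0.609 and 0.823 at 4 h, and the groups overlapped. The region it was divided by had a log2 fold change of 0 at 4 h (SE 0.15). The nearest region above the PIPOX window, 121.7 kb from it, had -0.22 at 4 h (SE 0.15, edgeR adjusted p = 0.576), the same as PIPOX. A drop shared by all cells and a larger drop in part of the cells cannot be told apart in these bulk libraries.

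**Figure D4:**
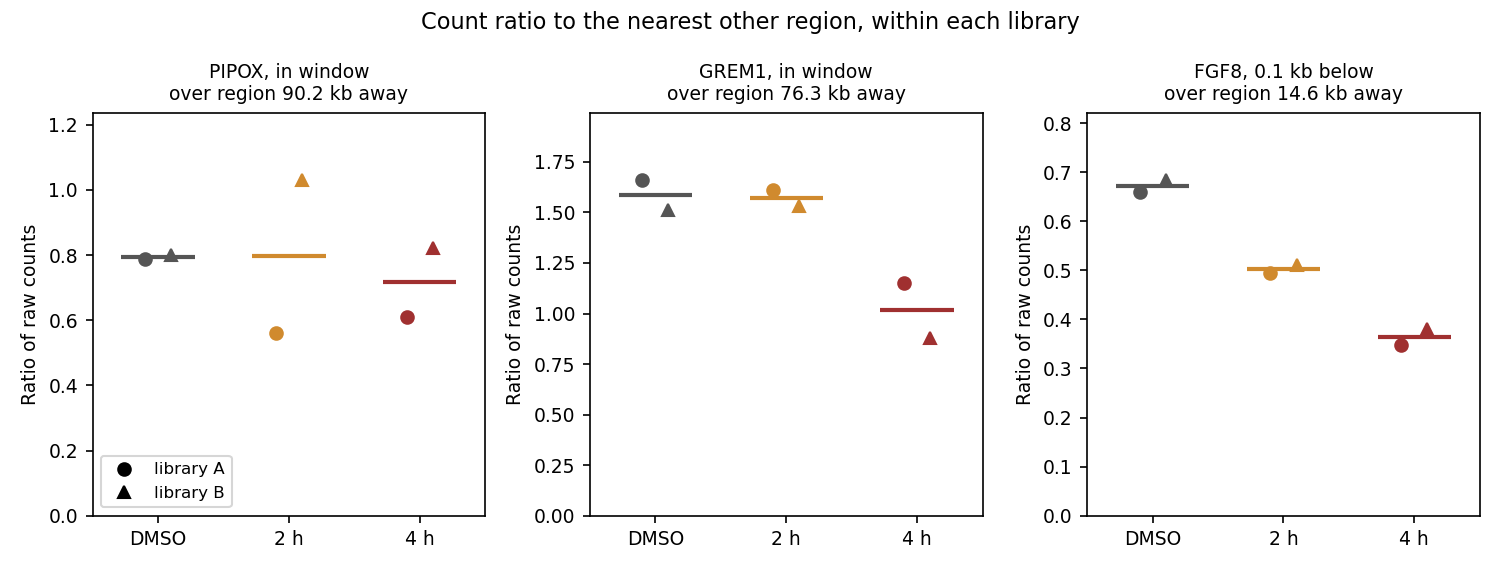
Raw count of a region divided by the raw count of the nearest other region in the same library, with axes from 0, for PIPOX, GREM1 and the region 0.1 kb below FGF8. Circles are library A, triangles library B and lines group means. The FGF8 ratio falls from a mean of 0.672 to 0.502 and 0.364, and the GREM1 ratio from 1.58 to 1.02 at 4 h.

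The region next to CDH3, chr16:68676495-68676895, had weak signal. It had 50.2 and 41.7 CPM in DMSO, 33.5 and 38.0 CPM at 2 h, and 27.1 and 42.6 CPM at 4 h. Both 2 h libraries lay below the DMSO libraries, as in 21.8% of all regions, while 4 h library B lay between the DMSO libraries. Its log2 fold changes were -0.38 (SE 0.22, edgeR adjusted p = 0.451) and -0.48 (SE 0.23, adjusted p = 0.347). With 40 to 93 counts per library, the 4 h interval of -0.94 to -0.02 spans nearly no change and a drop to 0.523 of DMSO. The 4 h value was -0.12 without 4 h library A (adjusted p = 0.929 in edgeR) and -0.77 without 4 h library B (0.213), and the 2 h value was -0.23 without DMSO library A.

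The region above SKP2, chr5:36189865-36190265, had 80.5 and 99.2 CPM in DMSO, 81.7 and 96.5 CPM at 2 h, and 66.2 and 72.4 CPM at 4 h. Both 4 h values lay below all others. In 20.6% of all regions both 4 h libraries lay below both DMSO libraries, and the share below the 2 h libraries too was not counted. The log2 fold change at 4 h was -0.38 (SE 0.16, 95% interval -0.70 to -0.05, unadjusted p = 0.0244, edgeR adjusted p = 0.283), and it was -0.22 without DMSO library B. The region above RASSF4, chr10:45496265-45496665, had 32.4 and 46.5 CPM in DMSO, 44.7 and 57.8 CPM at 2 h, and 41.6 and 36.2 CPM at 4 h. The DMSO values overlapped those of each treated group, with log2 fold changes of 0.39 (SE 0.21, edgeR adjusted p = 0.388) and 0.02 (SE 0.22, adjusted p = 0.986). Both 2 h values lay above both 4 h values, with a log2 fold change of -0.37 from 2 h to 4 h (edgeR adjusted p = 0.998). The share of all regions with that order was not counted. The log2 fold change at 2 h was 0.13 without DMSO library A, 0.66 without DMSO library B and 0.21 without 2 h library B.

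**Figure D5:**
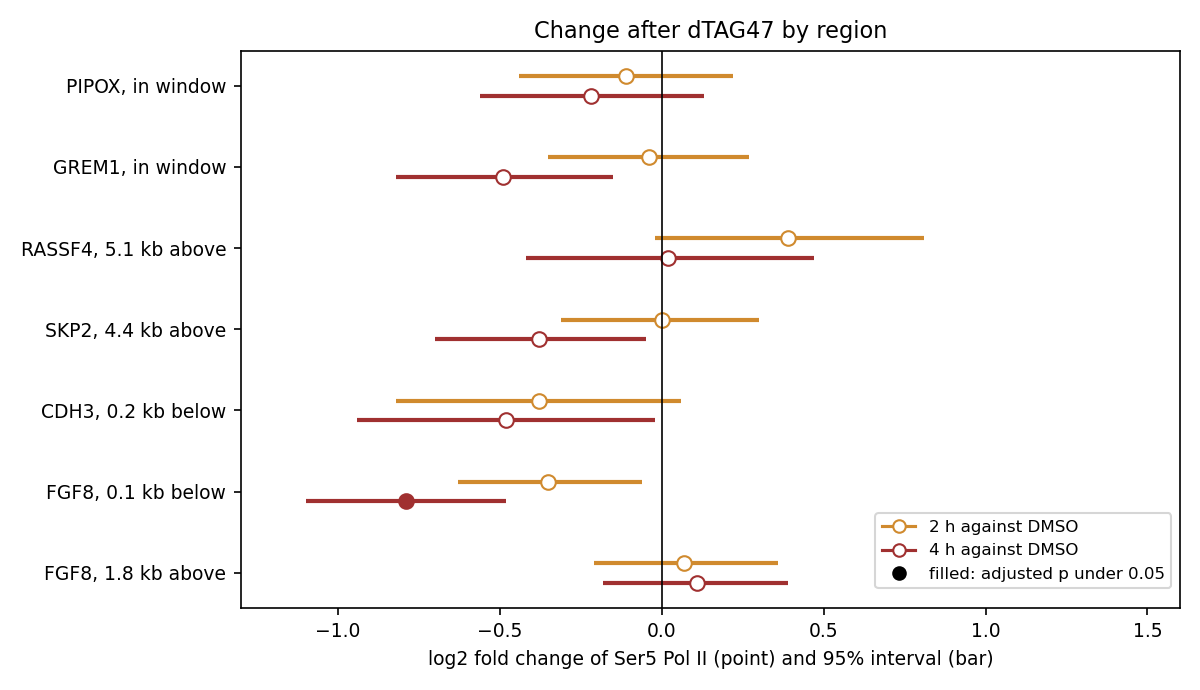
Log2 fold change of Ser5 Pol II against DMSO (points) with its 95% interval (bars) at 2 h in orange and 4 h in red for the same 7 regions. The filled point, below FGF8 at 4 h, is the one with an adjusted p under 0.05. The 4 h intervals of GREM1 and of the regions near SKP2 and CDH3 stop short of 0, and their adjusted p-values are 0.130, 0.283 and 0.347.

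Among the 5 regions within 10 kb of a window, 0 were called at 2 h, beside the 0.396% lower and 2.22% higher of all regions. At 4 h 1 was called lower, that below FGF8, and 0 higher, beside 0.487% and 1.52% of all regions. Further out, the 14 remaining regions were those within 100 kb of a window or the nearest on a side. Of these, 1 was called lower at 2 h and 0 at 4 h, beside 0.396% and 0.487% of all regions, with log2 fold changes from -0.56 to 0.50 at 2 h and from -0.50 to 0.34 at 4 h. The called region, chr10:103454037-103454437, also lies on the FBXW4 side of FGF8, 74.4 kb below the window, and was singled out after its values had been seen. It had 268 and 333 CPM in DMSO, 192 and 214 CPM at 2 h, and 215 and 208 CPM at 4 h. All treated values lay below both DMSO values, which at a single time held for 21.8% (2 h) and 20.6% (4 h) of all regions. The log2 fold change was -0.56 at 2 h (SE 0.15, edgeR adjusted p = 0.0235) and -0.50 at 4 h (SE 0.15, adjusted p = 0.0637). The 2 h call ended in DESeq2 (adjusted p = 0.0949) and without DMSO library B (-0.39, edgeR adjusted p = 0.194), 2 h library A (-0.48, 0.349) or 2 h library B (-0.64, 0.110). The regions 36.7 and 49.4 kb above the FGF8 window had log2 fold changes of 0.14 and -0.22 at 2 h and 0.08 and 0.13 at 4 h, none of them called.

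The nearest counted regions to ABAT were also not called. The one 51.6 kb below the window had log2 fold changes of 0.02 at 2 h and 0.34 at 4 h, and the one 11.9 kb above it 0.06 and -0.07. Another, 83.1 kb above, had 68.0 and 65.0 CPM in DMSO, 99.2 and 89.7 CPM at 2 h, and 72.5 and 88.4 CPM at 4 h. Its log2 fold change of 0.50 at 2 h (SE 0.15, edgeR adjusted p = 0.0639) fell just short of the threshold.

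The profile over the 6 libraries that was most like PIPOX belonged to a region at chr9:120176996-120177396 (Pearson's r of 0.993 over 6 libraries), with 51.3 and 52.7 CPM in DMSO, 43.3 and 57.8 at 2 h, and 47.9 and 49.0 at 4 h. For GREM1 it was chr12:105352105-105352505 (r of 0.985), with 37.3 and 33.5 CPM in DMSO, 34.9 and 38.8 at 2 h, and 27.7 and 25.6 at 4 h. Each is the best match out of 11995 regions, those averaging 20 counts or more, and the 6 points share libraries and treatment, so such values of r describe the search more than the regions.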

How the data were processed

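Counts of Ser5 Pol II ChIP-seq reads per region were used as deposited by the authors, as raw whole-number counts in 6 columns. Per the submitters' processing notes, the tools named are DiffBind, DESeq2, MACS2, Bowtie2 and Trimmomatic 0.32, and the builds named are dm3 and hg19. Their roles, the calling of regions and any input or spike-in step have no description in these notes, and no source used here says if positions are 0-based or 1-based. No scaling by fly reads was made, so a shift of all regions together would not be seen. Column letters A and B were not tied to the replicate numbers of the labels. The 12 samples of other antibodies were not analysed here.

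Regions of 400 bases were matched to the windows by any overlap. Counts of all 12123 regions were fitted with edgeR 4.0.16 (R 4.3.3; TMM, quasi-likelihood test, 6 libraries in 1 fit, common dispersion 0.00648), with Benjamini-Hochberg adjustment over the table and a threshold of 0.05. The spread of each region was drawn towards that of all regions (prior degrees of freedom of the dispersion 43.6). The low-count filter removed 0 regions. Standard errors are the log2 fold change divided by the square root of F, and intervals use the test's degrees of freedom. The script was tested on simulated data. Libraries of a group differed by more than sampling noise (chi-square per degree of freedom 1.50 to 2.33). Gene totals equal the single region of each gene and were not fitted again. Regions given with their own values are those in a window, those within 10 kb and the best-correlated region per gene. Further out, they are those within 100 kb of FGF8 and ABAT and the nearest on each side of PIPOX and GREM1. The distance of 100 kb was set after the values were seen. Regions further out around RASSF4, SKP2 and CDH3 enter the counts and ranges of the 14 remaining regions without values of their own. The genes, windows and tests were chosen with earlier results of these data known. The planned lists of pathway genes and cell type markers need hg19 gene positions and were not analysed here. Alternatives used DESeq2 1.42.0 and limma 3.58.1. Counting errors cover counting only, since reads are not independent molecules.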

Additional observations from a re-analysis of the deposited data

How the results depend on the processing

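No region in a window was called under any alternative but 1, though DESeq2 gave these regions no adjusted p at 2 h. With the column letter as a replicate block, GREM1 at 4 h was called lower (-0.49, adjusted p = 0.0341), 1 region of 2, in a fit that called 203 regions of the table lower and 540 higher at 4 h, against 59 and 184 without the block. The letters are not tied to the replicate numbers. Libraries of the same letter deviated in the same direction in every pair of groups, with r of 0.158 to 0.279 across regions. Whether a letter marks a shared culture or day was not tested. Windows widened by 10 kb also gave 1 region called lower at 4 h, the one below FGF8, and 0 called at 2 h. Signs turned only where the main value was small. Without 1 library each, PIPOX at 2 h ran from -0.45 to 0.19 and turned without 2 h library A. GREM1 at 2 h ran from -0.14 to 0.09 and turned without DMSO library A or 2 h library A. The region above SKP2 at 2 h ran from -0.16 to 0.15 and turned without DMSO library B or 2 h library A. That above RASSF4 at 4 h ran from -0.24 to 0.30 and turned without DMSO library A or 4 h library A. The 3 highest regions' share as a covariate gave 0.03 for GREM1 at 2 h and -0.13 for RASSF4 at 4 h. Total count scaling gave -0.03 for RASSF4 at 4 h, and cyclic loess with limma-trend gave -0.04 for the region above FGF8 at 2 h. The fall below FGF8 at 4 h ranged from -0.90 to -0.68 over 17 alternatives and kept its call in 15, as given above. Among these, the fit without a filter repeats the main fit, and a threshold of 0.1 cannot end a call. The region 74.4 kb below FGF8 at 4 h gained a call with total counts, cyclic loess, limma-voom, the block, the covariate, without DMSO library A and with a threshold of 0.1. The cause was not tested. Depth of 52 to 164 counts at GREM1 and 65 to 144 at PIPOX limits what can be seen.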
